A study of Mus musculus with 3 samples.

Results

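Rab GTPases are the small switch proteins that give each membrane compartment its identity. Their genes were taken as the protein-coding genes whose symbol is Rab followed by a digit, with the genes of Rab regulators such as Rab3gap, Rab3il1, Rab3ip, Rab11fip and Rabgap left out. The rule gave 60 of 21887 protein-coding genes. It uses names and no measured value. Of the 60, 59 are Rab GTPase genes and Rab5if is not, since it encodes a factor named for an interaction with Rab5.

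Accessible chromatin was mapped with ATAC-seq, where a transposase inserts sequencing adapters into open DNA, in ECOMG cells, a mouse myeloid progenitor line. All 3 libraries carried the genotype FKBP12F36V_NIPBL, a degron fused to NIPBL, the protein that loads cohesin onto DNA, and all 3 were grown with GM-CSF and β-estradiol. The 0 h library had no dTAG, the compound that sends the degron-tagged protein for breakdown, and the others had dTAG for 6 h or 72 h. Each came from 50000 cells of 1 line. With 1 library per time and none without dTAG at 6 h or 72 h, the effects of dTAG, of time in culture and of the single library cannot be told apart, no difference has a replicate check, and no test was run. The degron acts on the protein, so peaks at Nipbl would not show whether depletion worked. The lists held 182233, 178055 and 145044 regions, from 0 h to 72 h. Of 5 genes that mark the labelled cell type, Cebpa, Spi1, Elane and Prtn3 had a region at the start at every time and Mpo had none there. Of markers of epithelial and lymphoid cells, Krt5, Krt8, Cd3e, Cd79a, Lck and Pax5 had no start region at any time, Cdh1 had a low one at every time and Cd3g had a low one at 6 h and 72 h.

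A Rab protein is loaded with GTP by an exchange factor (GEF), recruits effectors such as tethers and motors to its membrane, and is switched off by a GTPase-activating protein (GAP). GDP dissociation inhibitors and escort proteins carry its lipid tail through the cytosol. In myeloid cells Rabs are known for steering phagosomes and endosomes to the lysosome and for the release of granules.

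A locus here is the gene span of RefSeq GRCm38.p6 with 10 kb on each side, a region is 1 line of a library's peak list, and all coordinates are those of mm10. Of the 60 loci, 41 reach into another protein-coding gene, so some of their regions may belong to that neighbour. From 0 h to 72 h, the 60 loci held 676, 657 and 643 regions. Loci of all coding genes held 181410, 177209 and 154945. From 0 h to 72 h the regions of Rab loci thus changed by a factor of 0.951 and those of all coding loci by 0.854. The first ratio was 1.11 times the second, with an exact 95% interval of 0.998 to 1.24 that covers counting error only and treats the counts as independent. At 6 h the same ratio was 0.995, from 0.892 to 1.11. Both intervals include 1, but that at 72 h did not when each region was counted once (1.12, 1.01 to 1.25) or with 50 kb of flank (1.09, 1.01 to 1.17).

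The median over Rab loci was 10.5 regions before dTAG and 9 after 72 h, against 7 and 5 over all coding loci. The median change at 72 h was 0 for Rab loci and -1 for all coding loci. Among genes with a region at the start at all 3 times, the factor at 72 h was 0.98 over 49 Rab genes and 0.915 over 12378 coding genes, closer to each other than over all loci. The 11 other Rab genes held 77, 78 and 56 regions, a factor of 0.727.

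At 6 h, 22 of 60 Rab loci held more regions than at 0 h (36.7%), beside 34.6% of coding loci. Another 22 held fewer, beside 41.8% of coding loci. A locus is called changed where the count differs by at least 3 regions and at least 1.5 times. By that rule 0 Rab loci held more regions at 6 h, beside 2.8% of coding loci, and 1, Rab13, held fewer, beside 4.64%. At 72 h, 22 of 59 Rab loci with a region at either time held more (37.3%, exact 95% interval 25 to 50.9), beside 24.1% of coding loci. In the other direction, 26 held fewer (44.1%, 31.2 to 57.6), beside 61.1%. The called loci at 72 h were 5 with more, Rab8b, Rab18, Rab5if, Rab32 and Rab28 (8.47%, 2.81 to 18.7), beside 3.65% of coding loci. There were 10 with fewer, Rab3c, Rab13, Rab36, Rab44, Rab42, Rab27b, Rab38, Rab2b, Rab15 and Rab4a (16.9%, 8.44 to 29), beside 20.2%. In both directions the share over coding loci lay inside the interval of the called Rab loci. The coding shares with any change lay outside the Rab intervals. Most Rab genes had a start region at all 3 times, and coding genes of that kind came closer. Of those coding loci 30.7% held more regions at 72 h and 53.8% fewer, both inside the Rab intervals. Among the 49 Rab genes of that kind the shares were 40.8% and 38.8%.

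The balance between more and fewer regions turned with the regions counted. Of Rab loci with a region of fold at least 10, 61.4% held more such regions at 72 h and 17.5% held fewer, beside 44.4% and 28% of coding loci. With the same number of top regions taken from each list, 61% held more and 32.2% fewer, beside 43.5% and 38.3%. In each of these counts, as with all regions, Rab loci leaned further toward more regions than coding loci did. The coding shares with fewer regions lay inside the Rab intervals, 8.75 to 29.9 and 20.6 to 45.6. Those with more lay outside, 47.6 to 74 and 47.4 to 73.5. The lean was smaller with no flank, with 33.3% more and 49.1% fewer, beside 25.8% and 51.4%. With regions within 200 bp merged it was 28.8% and 57.6%, beside 22.8% and 60.1%.

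**Figure D1:**
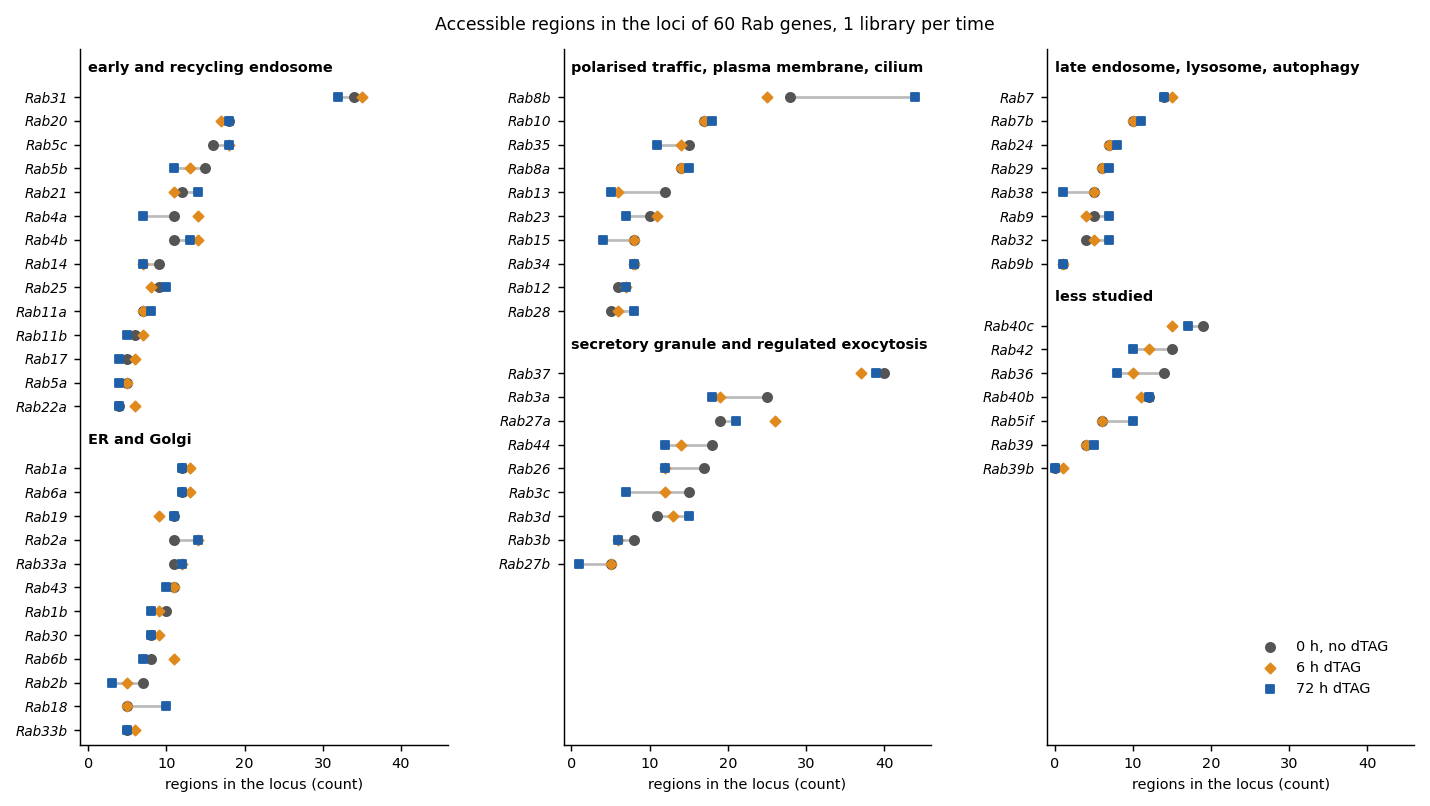
Number of accessible regions in each of 60 Rab loci (x axis, count) at 0 h (circles), 6 h (diamonds) and 72 h (squares), grouped by the compartment on which the protein is known to act. Grey lines join 0 h and 72 h. Rab8b stands out with 28, 25 and 44 regions, while Rab27b and Rab38 end at 1.

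The region at a gene's start was looked for within 1 kb of the start. For 11 genes without a listed start, within 1 kb of either end of the gene span was used. These are Rab2a, Rab4a, Rab7b, Rab18, Rab26, Rab27b, Rab30, Rab36, Rab37, Rab38 and Rab44. For these 11, what is called the start region may thus lie at the other end of the gene. At 0 h, 52 of 60 Rab genes had one (86.7%, 75.4 to 94.1), beside 62.1% of coding genes. At 6 h 51 had one (85%), beside 61.7%, and at 72 h 49 had one (81.7%, 69.6 to 90.5), beside 57.6%. Of the 52, Rab27b and Rab3c had none at 6 h (3.85%, beside 3.47% of coding genes), and Rab27b, Rab38 and Rab3c had none at 72 h (5.77%, beside 8.55%). Rab39b alone had a start region at 6 h and none at 0 h (1.96%, beside 2.81%), and 0 of 49 had one at 72 h and none at 0 h, beside 1.43%. Thus all 49 Rab genes with a start region at 72 h had one at 0 h too. A start without a region may still hold signal below the lowest listed fold, which was 3.02, 3.01 and 3.12 in the 3 lists.

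The height of a region is given by its fold, the ratio of its summit to the background as the authors' peak caller wrote it, which here only describes and ranks regions within 1 list. Start regions were ranked by fold among the same 12378 coding genes in each list, as percentiles from 0 to 100. The median Rab start lay at the 68.8 percentile at 0 h and the 72.3 percentile at 72 h, beside 50.1 and 49.8 over all ranked genes. The rank was higher at 72 h for 26 of 49 Rab genes (53.1%), beside 52.8% of coding genes. The median change was 1.57 percentile points, beside 0.481. The position of Rab starts within the list was therefore much the same at both times as a group, and single genes moved in either direction.

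The 5 highest starts at 0 h were those of Rab8a, a Rab of the cilium and of traffic to the cell surface, at percentile 98.4, Rab40c at 98.3, the Golgi Rab Rab30 at 97.3, the early endosome Rab Rab5b at 96.5 and the ER-to-Golgi Rab Rab1a at 96.4. Rab1a was the lowest of the 5 at 72 h, at percentile 89.2. The 5 lowest were Rab19 at 1.36, Rab34, a ciliary Rab, at 10.2, Rab15 at 11.3, Rab7b at 14.0 and Rab4a at 15.9. Rab19 is a case where the tall regions of the locus lie outside the start window: at 0 h its start region had a fold of 5.29, and the region at chr6:39379170-39379609, whose summit lies 1897 bp from the start, had a fold of 51.4.

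The 5 largest moves up in rank from 0 h to 72 h were those of Rab31, Rab7b, Rab32, Rab2a and Rab22a, of which Rab31 and Rab22a are endosomal, Rab7b is late endosomal and Rab32 serves lysosome-related organelles. The Rab31 start region (chr17:65772221-65772844 at 0 h) had a fold of 29.5, 36.9 and 71.0 and lay at percentiles 19.5, 22.5 and 44.6. A move up as large as that of Rab31 was seen at 185 of the 12378 ranked coding genes. Rab7b went from percentile 14.0 to 12.4 and 32.5, with folds of 21.2, 20.4 and 50.7. Its locus also held a strong region at 72 h with no counterpart before, at chr1:131679689-131679997 with a fold of 23.4, the tallest such region in any Rab locus. For Rab7b, Rab31 and Rab32 the 6 h percentile differed from that of 0 h by at most 3.02 points, so most of the shift lay between 6 h and 72 h.

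In Rab22a the percentiles were 72.9, 70.0 and 85.2, and in Rab2a, which acts at the Golgi, 64.5, 66.0 and 78.0. The 5 largest moves down were those of Rab39, Rab40b, Rab42, Rab28 and Rab1a. Rab39, a Rab of phagosomes and autophagy, had start folds of 52.2, 58.8 and 20.3 and percentiles of 36.7, 36.9 and 15.0. Rab40b had folds of 36.3, 46.7 and 7.81 and percentiles of 24.0, 28.8 and 5.46. At both genes the 6 h library was like the 0 h library and the 72 h library was low. Rab42 went from percentile 41.1 to 40.8 and 24.2, and Rab28, a ciliary Rab, from 52.6 to 52.0 and 44.6. A move down as large as that of Rab39 was seen at 494 ranked coding genes.

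**Figure D2:**
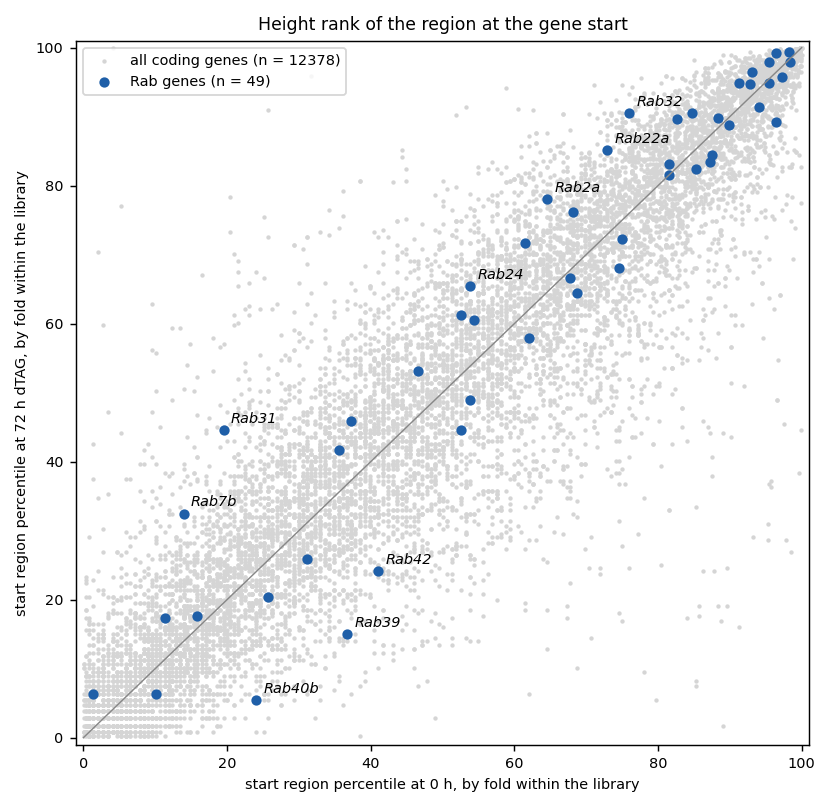
Percentile of the start region by fold at 0 h (x axis) and at 72 h (y axis), for 12378 coding genes (grey) and 49 Rab genes (blue) with a start region in all 3 lists. The line marks equal rank. Rab31 lies farthest above it at 19.5 and 44.6, and Rab39 farthest below it at 36.7 and 15.0.

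Promoter windows of 300 bases, 250 before and 50 after the start, were available from RefSeq (GRCm38.p6) for 49 of the 60 genes. The windows below show the highest start at 0 h (Rab8a), the largest move up (Rab31), the largest move down (Rab39) and, for contrast, a gene with no start region (Rab17), with CpG dinucleotides in capitals. CpG-dense promoters are known to be open in most cell types. The windows are chr8:72160950-72161249 (+ strand), chr17:65772703-65773002 (− strand), chr9:53706183-53706482 (− strand) and chr1:90967618-90967917 (− strand).
Rab8a: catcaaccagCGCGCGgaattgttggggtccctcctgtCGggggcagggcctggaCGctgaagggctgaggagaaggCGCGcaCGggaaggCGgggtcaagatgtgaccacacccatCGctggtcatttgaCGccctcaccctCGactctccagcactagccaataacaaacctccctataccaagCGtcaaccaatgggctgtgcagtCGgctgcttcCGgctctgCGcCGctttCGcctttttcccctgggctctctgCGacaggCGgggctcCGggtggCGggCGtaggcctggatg
Rab31: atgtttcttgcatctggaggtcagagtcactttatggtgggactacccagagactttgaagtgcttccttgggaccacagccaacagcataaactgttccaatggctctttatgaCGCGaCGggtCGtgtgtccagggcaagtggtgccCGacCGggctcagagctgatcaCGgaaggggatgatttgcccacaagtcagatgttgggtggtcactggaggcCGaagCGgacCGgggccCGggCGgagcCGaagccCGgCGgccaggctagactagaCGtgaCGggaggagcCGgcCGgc
Rab39: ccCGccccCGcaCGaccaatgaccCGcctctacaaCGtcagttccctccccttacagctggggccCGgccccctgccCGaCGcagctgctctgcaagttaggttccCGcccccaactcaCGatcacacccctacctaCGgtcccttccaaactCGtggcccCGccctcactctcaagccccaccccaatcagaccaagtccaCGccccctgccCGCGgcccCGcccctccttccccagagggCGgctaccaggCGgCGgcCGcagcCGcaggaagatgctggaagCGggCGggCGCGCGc
Rab17: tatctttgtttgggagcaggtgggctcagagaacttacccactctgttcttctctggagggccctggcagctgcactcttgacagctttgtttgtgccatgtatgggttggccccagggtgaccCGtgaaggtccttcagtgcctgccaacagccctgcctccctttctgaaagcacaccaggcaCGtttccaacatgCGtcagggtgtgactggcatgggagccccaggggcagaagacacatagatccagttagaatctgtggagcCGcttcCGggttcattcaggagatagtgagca

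These windows hold 23 CpG in Rab8a, 19 in Rab31, 27 in Rab39 and 5 in Rab17. The window of Rab39, whose start moved down most, is as CpG-dense as that of Rab1a, which also holds 27. Over the 40 Rab genes with a window and a start region at all 3 times the median was 24.5 CpG, and over the 7 with a window and no start region at any time it was 9. Among all coding genes the same medians were 21 and 3. The 7 are Rab17, Rab23, Rab25, Rab33a, Rab3b, Rab6b and Rab9b. Their windows hold 5 CpG in Rab17, 7 in Rab33a, 8 in Rab3b, 9 in Rab25, 17 in Rab9b, 20 in Rab23 and 42 in Rab6b.

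Rab6b, the Golgi Rab known from neurons, is the clearest exception among the starts without a region, since its window is among the most CpG-dense of the family. Rab23, with 20 CpG, equals the median of the 49 Rab windows. In the other direction, Rab42 with 6 CpG, Rab9 with 9 and Rab32 with 10 had start regions at 0 h, with folds of 57.5, 93.0 and 107. Rab17 and Rab25 are known as epithelial Rabs. Of the epithelial marker genes, Krt5 and Krt8 had no start region, while Cdh1 had one at each time, with folds of 4.54, 9.04 and 8.59. These loci were not empty: the Rab25 locus held 9, 8 and 10 regions, that of Rab33a 11, 12 and 12, and that of Rab9b 1 at each time. The listed start of Rab33a lies inside its gene span, and a region of fold 72.6 at 72 h covered the upstream end of that span. Its window of 7 CpG is therefore not the sequence at that region.

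**Figure D3:**
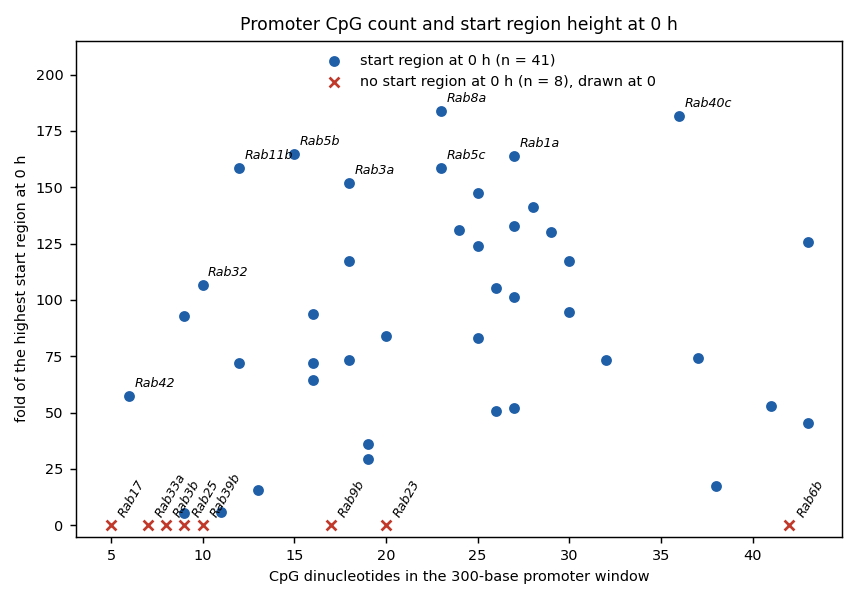
CpG dinucleotides in the 300-base promoter window (x axis, count) against the fold of the highest region within 1 kb of the start at 0 h (y axis), for 49 Rab genes. Red crosses are the 8 genes without a start region at 0 h, drawn at 0, of which Rab6b has 42 CpG and Rab17 has 5.

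Short motifs were searched in the 49 windows on both strands. The SP/KLF-type box GGGCGG was in 35 (71.4%), beside 46.3% of all windows and 64.2% of those with a start region at all 3 times. GAGGAA, the core that PU.1 binds, was in 9 (18.4%, beside 27.5% of all windows), the ETS 6-mer GGAAGT in 14 (28.6%, beside 25.1%), and TGTGGT, bound by RUNX, in 9 (18.4%, beside 15.1%). The E-box CACGTG was in 5 (10.2%, beside 7.91%). The ETS 8-mer CCGGAAGT, which contains the 6-mer, was in 2 (4.08%, beside 5.28%), TGANTCA, bound by AP-1, in 2 (4.08%, beside 7.03%), GCGCATGC, bound by NRF1, in 2 (4.08%, beside 3.61%), and TTGCGNAA, bound by C/EBP, in 1 (2.04%, beside 0.972%). A match describes letters and is not a measured binding site.

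The palindrome TCACGTGA, which contains that E-box and is the core of the CLEAR element of lysosomal genes, was in 3 windows (6.12%, exact 95% interval 1.28 to 16.9), beside 1.25% of all windows and 1.9% of those with a start region at all 3 times. It was 1 of 10 motifs searched, and the interval includes the 1.9%. The windows of Rab7, Rab9, Rab29 and Rab32, of the late endosome and lysosome group, lack it. The 3 genes that carry the motif are shown with it in capitals. It begins at -31 bases from the start in Rab21, 1 in Rab24 and -96 in Rab5a. The stretches are chr10:115315599-115315638 (− strand), chr13:55321956-55321995 (− strand) and chr17:53479122-53479161 (+ strand).
Rab21: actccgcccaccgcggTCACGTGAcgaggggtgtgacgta
Rab24: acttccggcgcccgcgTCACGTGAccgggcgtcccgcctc
Rab5a: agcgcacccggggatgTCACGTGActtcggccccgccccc

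Rab24, a Rab of autophagy, had start percentiles of 53.9, 60.3 and 65.5, and Rab21, which returns integrins from endosomes, 35.6, 33.8 and 41.6. Rab5a, an organiser of the early endosome, was at 81.6, 84.0 and 81.5. The 3 genes thus share the motif but not the rank of the start.

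Rabs of the ER and Golgi, 12 genes, held 111, 117 and 112 regions. At 72 h 3 of the loci held more, 4 fewer and 5 the same number, and among regions of fold at least 10 these were 9, 1 and 2. With that fold 44.4% of coding loci held more and 28% fewer. Rab18, an ER and lipid droplet Rab, had 5, 5 and 10 regions, and each of its 5 regions of 0 h overlapped a region at 72 h. The other 5 regions at 72 h had no overlap at 0 h, and the covered length in Rab18 was 1207, 1214 and 1932 bp. Of the 5, 1 was strong. Its start was high throughout, at percentiles 92.8, 94.3 and 94.7. Rab2a held 11, 14 and 14 regions, while its paralog Rab2b held 7, 5 and 3, opposite directions that depended on the regions counted. With 50 kb of flank both were lower at 72 h, Rab2a with 25, 24 and 23 and Rab2b with 20, 21 and 16, and Rab2b held 3 regions of fold at least 10 at each time. In Rab2b the regions without overlap at 72 h were the weak ones: its 3 strong regions all remained matched, and its start went from percentile 84.7 to 90.5.

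Rab1a, with 12, 13 and 12 regions, and Rab1b, with 10, 9 and 8, start ER-to-Golgi traffic. Rab6a, which returns vesicles within the Golgi, held 12, 13 and 12 with a start at percentile 87.2 at 0 h, while Rab6b, with no start region, held 8, 11 and 7. Rab33b held 5, 6 and 5 regions with a start at 91.2, and its paralog Rab33a had no region within 1 kb of its listed start. That start lies inside the gene span. The upstream end of the Rab33a span was covered by a region of fold 62.5 at 6 h and 72.6 at 72 h, which also overlapped a region at 0 h. Its summit at 72 h was 5777 bp from the listed start. In both of these pairs 1 copy had a region at its listed start and the other had none there, which for Rab33a depends on the start that is listed. The remaining loci of the group, Rab19, Rab30 and Rab43, held 11, 8 and 11 regions at 0 h and 11, 8 and 10 at 72 h.

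Rabs of early and recycling endosomes, 14 genes, held 162, 168 and 155 regions, but 69, 75 and 88 of fold at least 10. At that cutoff 44.4% of coding loci held more regions at 72 h and 28% fewer. Of the 12 with ranked starts, 10 ranked higher at 72 h, beside 52.8% of ranked coding genes, and the median change was 3.05 points, beside 0.481. The 3 Rab5 genes all had start regions, with percentiles at 0 h of 81.6 for Rab5a, 96.5 for Rab5b and 95.4 for Rab5c. Their loci differed: Rab5a held 5, 5 and 4 regions, Rab5b 15, 13 and 11, and Rab5c 16, 18 and 18. Rab31 had one of the busiest loci of the family, with 34, 35 and 32 regions. Its tallest region lay inside the gene, at chr17:65724252-65724576 at 0 h, with folds of 80.1, 97.2 and 116 against 29.5, 36.9 and 71.0 at the start. Rab31 also had 3 strong regions of 0 h without overlap at 72 h and 1 the other way. Its count was higher at 72 h under 4 alternatives, among them regions of fold at least 10, with 16 at 0 h and 19 at 72 h, so it gave no firm direction.

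Rab4a and Rab4b, which serve rapid recycling to the surface, both held 11 regions at 0 h and 14 at 6 h, then 7 and 13 at 72 h. Their ranked regions lay at opposite ends of the list, at percentile 15.9 for Rab4a and 93.0 for Rab4b. For Rab4a, without a listed start, the tallest region near either gene end was ranked. Rab11a, the recycling endosome Rab, held 7, 7 and 8 regions and moved from percentile 68.2 to 76.2, and Rab11b held 6, 7 and 5 and stayed high, at 95.4 and 94.8. Rab20, known from phagosome maturation, held 18, 17 and 18 regions, Rab21 12, 11 and 14, Rab14 9, 7 and 7 and Rab22a 4, 6 and 4. Rab25 and Rab17, the epithelial Rabs without start regions, held 9 and 5 regions at 0 h and 10 and 4 at 72 h.

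Rabs of late endosomes, lysosomes and autophagy, 8 genes, held 52, 53 and 56 regions, the only group besides those of the ER and Golgi and of polarised traffic whose count was higher at 72 h than at 0 h. More regions were listed at 5 of the 8 loci (62.5%, beside 24.1% of coding loci with a region at either time), and fewer at 1, Rab38. This did not hold with other loci: 3 held more and 3 fewer with no flank, where the group held 31, 33 and 31 regions, and likewise with 50 kb of flank, with 120, 127 and 119. With regions within 200 bp merged 2 held more and 2 fewer, with 45, 45 and 43. Of the 6 ranked starts 5 were higher, with a median change of 10.2 percentile points, beside 0.481 for all ranked genes. Rab7, the master Rab of the late endosome, held 14, 15 and 14 regions with its start at 81.6, 73.9 and 83.2. Rab9, which returns receptors to the Golgi, held 5, 4 and 7, and its paralog Rab9b a single region at each time, with its summit 18089 bp from the start at 0 h.

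Rab32 and Rab38 are close relatives that both act in lysosome-related organelles such as melanosomes, and they parted here. Rab32 held 4, 5 and 7 regions, of which 1 at each time, that at the start, had a fold of at least 10. The start region (chr10:10557936-10558418 at 0 h) had folds of 107, 130 and 187 and lay at percentiles 76.0, 78.1 and 90.5. The locus of Rab38 (gene at chr7:88430273-88491572) held 5, 5 and 1 regions and has no other coding gene. Its tallest 0 h regions were chr7:88423928-88424260 in the flank, with a fold of 28.7, and chr7:88430152-88430368 at an end of the gene, with a fold of 28.0. At 6 h they had folds of 18.1 and 30.1. At 72 h neither was listed, and the 1 region left, chr7:88482472-88482586 with a fold of 8.59, overlapped none of the 0 h regions.

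Rabs of polarised traffic, the plasma membrane and the cilium, 10 genes, held 123, 116 and 127 regions. Rab8b accounts for the higher count at 72 h, since the other 9 held 95, 91 and 83. The count of the group was lower at 72 h, with 107, 95 and 98, when regions within 200 bp were merged. The Rab8b gene (chr9:66843609-66919705, − strand) had 28, 25 and 44 regions in its locus, covering 5308, 5133 and 9918 bp. The gain of 16 was matched or exceeded at 17 of 21887 coding loci, Rab8b included. Of the 44 regions 20 had no overlap at 0 h, while 4 of the 28 had none at 72 h. The strong regions, those in the upper 50% of their own list by q, numbered 11, 13 and 26.

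The start of Rab8b differed little in rank. Its start region (chr9:66919137-66919955 at 0 h) had folds of 131, 141 and 164, at percentiles 87.5, 82.2 and 84.5. Some regions inside the gene had folds that differed more between the lists than that of the start. These regions were not ranked, so a difference in scale between the lists is not removed. At chr9:66886814-66887168 in the 0 h list the folds were 45.4, 61.0 and 154. At chr9:66879670-66879724 the 0 h list held a region of fold 3.78, the 6 h list held none, and the 72 h list held chr9:66879564-66879875 with a fold of 56.2. A region at chr9:66915418-66915743 in the 72 h list, with its summit 4098 bp from the start, had a fold of 104, against 41.4 at 6 h.

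Rab8b also had 6 strong regions at 72 h with no overlap at 0 h, a number reached by 28 coding loci, Rab8b included. They lay at chr9:66840312-66840481, chr9:66880543-66880707, chr9:66894064-66894345, chr9:66894912-66895025, chr9:66899028-66899306 and chr9:66917580-66917788, with folds of 9.37 to 15.6, and 5 of the 6 were inside the gene. The tallest of them, chr9:66894912-66895025 with a fold of 15.6, was the only 1 of the 6 with an overlap at 6 h. The Rab8b promoter window (chr9:66919656-66919955, − strand) holds 24 CpG, shown in capitals, close to the 23 of Rab8a.
Rab8b: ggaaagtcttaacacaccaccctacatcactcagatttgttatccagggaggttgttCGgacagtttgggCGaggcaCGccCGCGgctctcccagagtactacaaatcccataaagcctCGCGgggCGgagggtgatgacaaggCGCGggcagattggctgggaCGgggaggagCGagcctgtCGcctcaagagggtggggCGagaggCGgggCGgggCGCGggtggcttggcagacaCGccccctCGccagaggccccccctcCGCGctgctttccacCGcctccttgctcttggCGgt

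Rab8a, the paralog of Rab8b, held 14, 14 and 15 regions, with the start at percentiles 98.4, 99.1 and 97.9. The locus of Rab8b also reaches into Aph1c, and its tallest region of all, chr9:66834602-66835429 at 0 h with folds of 140, 176 and 209, lies in that flank. With the gene span alone the counts for Rab8b were 23, 21 and 40. With regions of a fold of at least 10 they were 8, 9 and 24, so the higher count did not rest on weak regions or on the flanks. With regions within 200 bp merged, the Rab8b locus held 25, 21 and 33. That rise was smaller and no longer met the ratio required for a call. Part of the higher count at 72 h thus came from regions that lay close together.

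**Figure D4:**
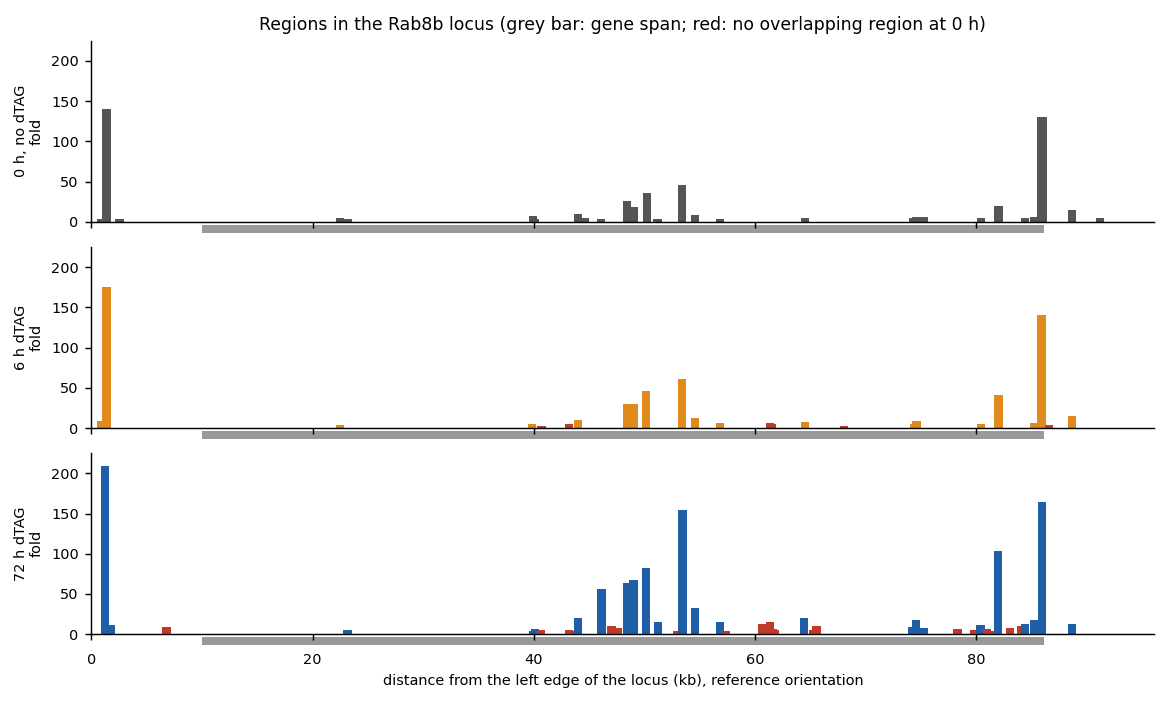
Regions of the Rab8b locus in the 0 h, 6 h and 72 h lists, by distance from the left edge of the locus (x axis, kb) and fold (y axis). Bar width is the region's length, with a minimum so that short ones stay visible. The grey bar marks the gene span, whose start is on the right, and red bars have no overlapping region at 0 h, as holds for 20 of the 44 regions at 72 h.

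Among the other Rabs of this group, Rab13, which acts at tight junctions, held 12, 6 and 5 regions, so its lower count was already present at 6 h. All 6 regions of Rab13 missing at 6 h were weak, its 3 neighbouring coding genes share the locus, and its start was higher in rank, at 71.7 after 61.5. Rab35, a Rab of recycling to the plasma membrane, held 15, 14 and 11, Rab15 8, 8 and 4, and Rab23, a regulator of Hedgehog signalling without a start region here, 10, 11 and 7. Rab28 held 5, 6 and 8 regions, but only 1 of the 8 lacked an overlap at 0 h and the covered length was 1920, 1787 and 1786 bp. With regions within 200 bp merged, Rab28 held 4, 5 and 5, so its call came mostly from the same stretches being listed in more pieces. Rab10 held 17, 17 and 18 regions, Rab12 6, 7 and 7, and Rab34 8 at each time.

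Rabs of secretory granules and regulated exocytosis, 9 genes, held 158, 144 and 131 regions, a factor of 0.829 at 72 h, close to the 0.854 of all coding loci. Fewer regions were listed at 7 of the 9 loci (77.8%, beside 61.1% of coding loci) and more at Rab27a and Rab3d. Among regions of fold at least 10 the group held 59, 63 and 67, with 3 loci lower and 4 higher at 72 h. The lower total was thus one of regions of fold below 10. At that cutoff 28% of coding loci were lower and 44.4% higher at 72 h. Of the 6 ranked starts, a small number, 5 were lower in rank at 72 h, beside 5843 of 12378 coding genes. Those of Rab26, Rab37 and Rab44 were taken at either gene end, since no start is listed. In the same libraries the loci of Elane and Prtn3, which encode granule proteases of neutrophil precursors, held 24, 20 and 13 and 27, 23 and 16 regions, and that of Kit 7, 5 and 0. Of the 12 myeloid progenitor marker loci 8 were lower at 72 h (66.7%, beside 61.1% of coding loci). The 3 that were higher were Csf2rb with 17, 22 and 24, Itgam with 12, 15 and 16 and Csf1r with 8, 8 and 9. The part of these marker genes in the counts of granule Rabs was not tested.

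Rab27a and Rab27b both tether secretory granules and lysosome-related organelles to the cell surface, and Rab27a is known from neutrophil granule release and from Griscelli syndrome. The Rab27a locus (gene at chr9:73044810-73097623) held 19, 26 and 21 regions, and its 7 more at 6 h were the largest increase of the family at that time. The start of Rab27a stayed near the middle of the list, at percentiles 53.9, 51.4 and 49.0. A region inside the gene, chr9:73089344-73090125 at 0 h, had folds of 66.5, 82.1 and 133, so at 6 h and 72 h it was the tallest of the locus, above the 80.6 and 78.8 at the start. Rab27b held 5, 5 and 1 regions. A region of fold 6.05 at 1 end of the gene was in the 0 h list alone, and the 1 region left at 72 h had a fold of 4.68 after 9.07 and 12.8 in the earlier lists.

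**Figure D5:**
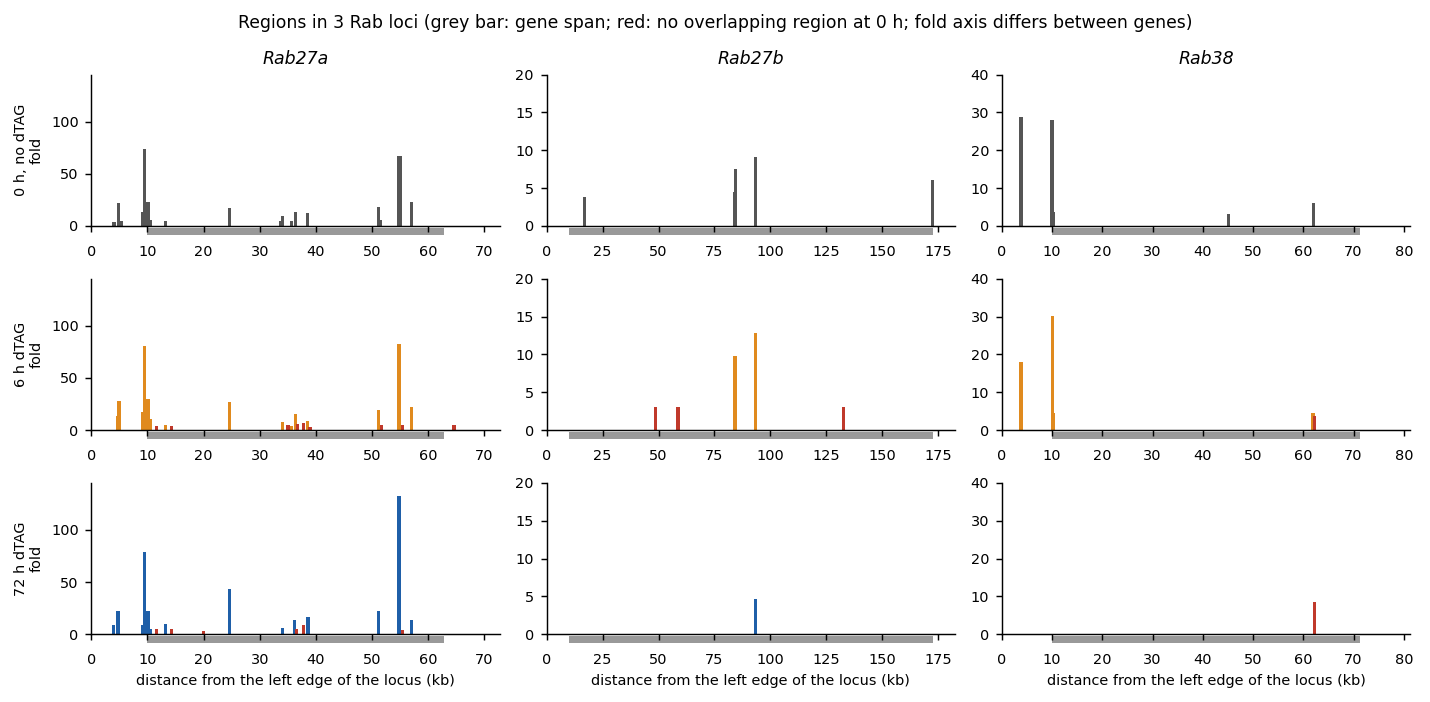
Regions in the loci of Rab27a, Rab27b and Rab38 (columns) at 0 h, 6 h and 72 h (rows), by distance from the left edge of the locus (x axis, kb) and fold (y axis, with a scale of its own for each gene). Bars are widened to stay visible, grey bars mark gene spans and red bars have no overlapping region at 0 h. Rab27a ends with 21 regions, and Rab27b and Rab38 with 1 each.

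The 4 Rab3 genes are known for the release of synaptic and endocrine vesicles. Rab3a held 25, 19 and 18 regions in a locus shared with 4 other coding genes, with its start at 94.0, 97.2 and 91.4, but 9 regions of fold at least 10 at 0 h and 12 at 72 h. Rab3b, without a start region, held 8, 6 and 6. Rab3d, the Rab3 of exocrine and mast cell granules, held 11, 13 and 15, the only Rab3 locus with more regions at 72 h. With 50 kb of flank Rab3d held 33 at 0 h and 32 at 72 h, and all 4 were lower. Rab3c held 15, 12 and 7, the largest decrease of the family, and 8 of its 15 regions of 0 h had no overlap at 72 h while 0 of the 7 were new.

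The region at the start of Rab3c had a fold of 6.05 and was in the 0 h list alone. The tall regions of Rab3c stayed: chr13:110054579-110054816 had folds of 21.2, 33.2 and 60.9, and chr13:110185059-110185264 had folds of 24.2, 21.1 and 39.0. With regions of a fold of at least 10 the Rab3c locus held 5 at each time, and with a −log10 q of at least 10 it held 5, 5 and 6. Its lower count was therefore one of regions of fold below 10. The Rab3c window (chr13:110280157-110280456, − strand) holds 11 CpG, shown in capitals as the counterpart of the CpG-rich windows above.
Rab3c: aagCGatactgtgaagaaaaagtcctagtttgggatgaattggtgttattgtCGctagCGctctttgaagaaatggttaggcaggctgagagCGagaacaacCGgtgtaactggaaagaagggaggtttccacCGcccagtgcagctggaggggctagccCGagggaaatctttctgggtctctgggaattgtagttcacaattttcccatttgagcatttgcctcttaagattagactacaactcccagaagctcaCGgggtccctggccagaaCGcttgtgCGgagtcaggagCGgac

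Rab37, a Rab of mast cell and neutrophil secretion, had the most regions of any Rab locus at 0 h, with 40, 37 and 39. Its start is not listed, so the tallest region near either gene end was ranked, at percentile 82.6 at 0 h and 89.7 at 72 h. At 72 h that region was chr11:115163016-115163516 in the flank, with its summit 469 bp from the gene end. Whether that end is the start is not known here. Rab44, a large Rab of mast cell granules, held 18, 14 and 12, and Rab26, which acts in granule maturation, 17, 12 and 12. Both Rab44 and Rab26 were lower already at 6 h, but with a fold of at least 10 the Rab26 locus had a higher count at 72 h.

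The 7 less studied genes held 70, 59 and 62 regions. Rab36 went from 14 to 10 and 8, and Rab42 from 15 to 12 and 10. The rank at the start of Rab42 was lower too at 72 h. For Rab36, ranked at either gene end, it went from 25.7 to 20.4. Rab40c, a Rab with a ubiquitin ligase adaptor domain, held 19, 15 and 17 regions with one of the tallest starts of each list, at percentiles 98.3, 99.2 and 99.4, while its paralog Rab40b was at 24.0, 28.8 and 5.46 with 12, 11 and 12 regions. Rab39 held 4, 4 and 5. Rab39b had a single region, at its start in the 6 h list with a fold of 5.27, and none in the others. Rab5if held 6, 6 and 10 regions, of which 3 of the 10 had no overlap at 0 h. With 50 kb of flank the Rab5if count was 20, 19 and 18, so its direction depended on the width of the locus.

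Strong regions had to reach a −log10 q of 7.82 at 0 h, 9.25 at 6 h and 13 at 72 h, so the 72 h list met the strictest bar. Of 386 strong 0 h regions in Rab loci, 5 had no overlap at 6 h (1.3%, beside 2.2% of strong regions in coding loci) and 32 had none at 72 h (8.29%, 5.74 to 11.5, beside 13.3%). Of 382 strong 6 h regions 4 had no overlap at 0 h (1.05%, beside 1.6%). Of 375 strong 72 h regions 21 had none at 0 h (5.6%, 3.5 to 8.43, beside 6.86%). Among all 676 regions of 0 h, weak ones included, 71% overlapped a region at 72 h, beside 63.3% in coding loci. The shares without overlap were thus lower in Rab loci than in coding loci for regions of 0 h, and close to them for regions of 72 h.

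The 32 strong regions without overlap at 72 h lay in 21 loci and were mostly low: 15 had a fold of 6.8, the lowest that counts as strong at 0 h, and the median was 7.56. Rab38 held the tallest, named above. Next came chr7:92781517-92781610 in Rab30, with a fold of 15.9, chr10:75042212-75042345 in Rab36, with a fold of 15.1, chr17:65777587-65777710 near Rab31 and chr7:100631718-100631865 in Rab6a, both with a fold of 12.1, and chr12:76793847-76794111 near Rab15 and chr11:115091668-115091791 in Rab37, both with a fold of 10.6. Those in Rab1a, Rab26, Rab3a, Rab3c, Rab40c, Rab43, Rab4a and Rab5a all had the fold of 6.8. In Rab27b, Rab2a, Rab35, Rab42, Rab44 and Rab7 the folds were at most 9.07. Of the 32, 28 still overlapped a region at 6 h.

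The 21 strong regions at 72 h without overlap at 0 h lay in 15 loci, 6 of them in Rab8b, with folds of 9.37 to 23.4. After those of Rab7b and Rab8b the tallest were chr6:88053464-88053583 near Rab7, with a fold of 15.6, and 1 near Rab18, with a fold of 14.1. The others, in or near Rab10, Rab14, Rab19, Rab2a, Rab30, Rab31, Rab37, Rab43, Rab4a, Rab5if and Rab8a, had folds of at most 11.7. Of the 21, 5 overlapped a region at 6 h.

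The genes that switch, carry or read Rabs were counted from a list of 112. Their loci held 1689, 1685 and 1594 regions, a factor of 0.944 beside 0.951 for the Rab loci. At 72 h 33 held more (29.5%, beside 24.1% of coding loci with a region at either time), 62 fewer (55.4%, beside 61.1%) and 17 the same number. By the rule of 1.5 times and 3 regions 4 of 112 held more, close to the 3.65% of coding loci. Another 13 of 112 held fewer, a smaller share than the 20.2% of coding loci. Among those with more were Rin2, a Rab5 exchange factor, with 12, 12 and 20 regions, Eea1, the Rab5 tether of early endosomes, with 8, 11 and 13, and Ric1, part of the Rab6 exchange factor, with 6, 7 and 10.

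Of the 13 with fewer regions, 7 were effectors, out of 44 effectors in the list, also a smaller share than the 20.2% of coding loci. They were Rph3a, which binds Rab3 and Rab27, with 18, 14 and 4, and Rims1, a Rab3 effector of the active zone, with 11, 8 and 3. Myrip, the Rab27 link to myosin, had 17, 15 and 7, Exph5, a Rab27 effector, 10, 10 and 3, and Sytl2, another Rab27 effector, 5, 5 and 2. Mical3, a Rab8 effector, had 36, 39 and 23 and Vps41, which joins Rab7 to lysosome fusion, 9, 7 and 6. Among the exchange factors were Dennd6b, Rab3il1 and Rab3ip, with 14, 18 and 9 regions at 0 h and 7, 10 and 6 at 72 h. The 2 GAPs were Rabgap1 and Usp6nl, with 13 and 10 regions at 0 h and 8 and 6 at 72 h.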

How the data were processed

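ATAC-seq peak lists of 3 libraries, 1 each at 0 h, 6 h and 72 h, were analysed. Per the submitters' processing notes the authors' tools included the aligner BWA 0.7.17, the peak caller MACS2 2.2.7 and, for later steps, bedtools 2.30.0, HOMER and ChIPseeker, on the build mm10. Peaks were called per library. How fragments, duplicates and shifts of read ends were handled is not given in the sources used here. Shifts of a few bases would not change a locus count, while duplicates would change the heights.

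The deposited lists hold, for every peak, a fold (a ratio of summit to background) and the −log10 of the p-value and q-value, all as the authors' peak caller wrote them. Total reads per library were not used here, so the lengths of the lists stand for depth. In each list fold and −log10 q rank the regions identically.

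Gene spans came from RefSeq GRCm38.p6, the assembly of mm10, without strand. For 49 Rab genes the start and strand came from the RefSeq promoter table, and for 11 (Rab7b, Rab2a, Rab38, Rab30, Rab4a, Rab36, Rab44, Rab26, Rab37, Rab18 and Rab27b) either end of the span was used. Regions were matched by at least 1 bp. Where loci overlap, a region was counted in both. Shares have exact Clopper-Pearson 95% intervals, which cover counting error only. Counting and overlap were checked on simulated regions, and ranking was not. Python 3.11.15, numpy 2.4.6, pandas 2.3.3, scipy 1.17.1 and matplotlib 3.10.9 were used.

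The members, the roles, the marker and regulator lists and the rules were chosen with earlier results of these data known. Named genes were those with the 8 largest increases and decreases in regions at 72 h, the 4 largest at 6 h, a start region in some lists only, no region, the 5 highest and lowest start ranks, the 5 largest rank changes each way, strong regions without overlap, and pairs of the same number. Other members are given by their counts and percentiles in their role group, outside that rule. Alternatives varied the flank, the cutoff, the list length, merging, the start window and the overlap. Some regulator genes are counted in their list and not reported here by name.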

Additional observations from a re-analysis of the deposited data

How the results depend on the processing

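The ratio of regions in Rab loci to those in all coding loci was 0.959 to 1.01 at 6 h over 8 alternatives and 1.07 to 1.16 at 72 h over 10, of which the one without Rab8b gave 1.08 and the one restricted to genes with a start region in all lists gave 1.07. The interval at 72 h excluded 1 with 50 kb of flank and with each region counted once. Shares of starts with a region (81.7% to 88.3% at 0 h, 80% to 83.3% at 72 h), the median rank change (1.33 to 1.61) and strong 72 h regions without overlap at 0 h (4.3% to 7.43%) moved by less than their intervals. Loci with fewer regions at 72 h came to 64.4% with 50 kb of flank, 24.1% with a −log10 q of at least 10, 17.5% with a fold of at least 10 and 57.6% with regions within 200 bp merged, beside 73.1%, 35.9%, 28% and 60.1% of coding loci. Loci with more regions came to 62.1% with that q, 61.4% with that fold and 61% with lists of equal length, beside 38.8%, 44.4% and 43.5%. Under those 3 settings more Rab loci held more regions than fewer, so the direction for the group depends on whether weak regions of the longer 0 h list are counted. Strong 0 h regions without overlap at 72 h came to 4.19% with strong set at that q and 2.79% at that fold, beside 8.64% and 4.93%. Among the 15 loci called at 72 h, the opposite direction appeared for Rab5if with 50 kb of flank and for Rab3c with a −log10 q of at least 10. The alternatives without Rab8b, with ranked genes only and with listed starts only were chosen after seeing the data. Leaving out a replicate was not possible with 1 library per time. No paired analysis was possible because each time has a single library.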
